A study of Mus musculus with 104 samples.

Results

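DNA methylation was compared between livers taken at postnatal day (P) 5 and P15, early and late in suckling, by locus-specific bisulfite sequencing (LSBS). LSBS amplifies a selected locus from DNA treated with bisulfite, and the methylation of a CpG is the share of its reads that kept the cytosine. All 5 P5 livers and all 6 P15 livers measured by LSBS were used, that is, 11 of the 39 LSBS livers and of the 104 samples of the series, and all 124 CpGs of the 11 amplicons were kept. Both groups were whole livers of C57BL/6 mice (C57BL/6J in the study's methods), for which the labels give no engineered allele and no treatment, and the labels set the groups apart by age. The labels give neither litter nor batch, no field gives the sex, and each liver is described as a separate sample. Per the study's methods, the LSBS livers came from animals of both sexes.

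In mammals methyl groups are added to cytosines of CpG pairs by DNA methyltransferases, and they are lost either by dilution when DNA is copied without upkeep or through oxidation by TET enzymes. Methylated CpGs near promoters and enhancers are often found at silent elements, and liver-specific enhancers commonly lose methylation as hepatocytes mature. During suckling the liver takes up its adult metabolic functions while the blood-forming cells of the fetal liver leave. A value from whole liver averages over all cells, so a change in the share of a cell type and a change within cells cannot be told apart here.

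Of the 10 amplicons described singly, the 5 in which at least 3 CpGs passed the test between P5 and P15 are shown by sequence, so that the position of the CpGs that changed can be read next to those that did not. They are the plus strand of mm9 from the reference, without the primers, and capitals mark the CpGs that changed. In the Rab3a sequence the final capital C is the cytosine of a CpG at the end of the insert.
chr2 amplicon between Srp14 and Bmf, chr2:118336264-118336483: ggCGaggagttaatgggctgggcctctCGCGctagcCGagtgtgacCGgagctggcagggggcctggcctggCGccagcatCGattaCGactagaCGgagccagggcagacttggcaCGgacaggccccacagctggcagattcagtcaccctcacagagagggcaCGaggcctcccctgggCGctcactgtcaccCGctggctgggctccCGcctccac
chr8 amplicon upstream of Dusp4, chr8:35867999-35868228: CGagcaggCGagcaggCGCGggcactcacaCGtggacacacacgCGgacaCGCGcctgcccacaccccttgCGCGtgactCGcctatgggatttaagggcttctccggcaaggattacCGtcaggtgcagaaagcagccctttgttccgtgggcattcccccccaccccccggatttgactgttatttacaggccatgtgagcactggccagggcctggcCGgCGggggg
chr8 amplicon upstream of Rab3a, chr8:73277206-73277397: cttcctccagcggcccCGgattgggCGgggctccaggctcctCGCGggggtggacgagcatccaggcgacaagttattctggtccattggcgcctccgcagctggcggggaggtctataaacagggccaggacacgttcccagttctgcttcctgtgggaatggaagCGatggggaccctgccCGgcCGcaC
chr11 amplicon upstream of Otx1, chr11:21904676-21904877: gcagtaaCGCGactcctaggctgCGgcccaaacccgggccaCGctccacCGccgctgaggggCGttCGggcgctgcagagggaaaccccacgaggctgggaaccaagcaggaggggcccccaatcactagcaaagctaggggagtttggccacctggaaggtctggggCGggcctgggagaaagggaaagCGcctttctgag
chr19 amplicon upstream of Klf9, chr19:23211044-23211261: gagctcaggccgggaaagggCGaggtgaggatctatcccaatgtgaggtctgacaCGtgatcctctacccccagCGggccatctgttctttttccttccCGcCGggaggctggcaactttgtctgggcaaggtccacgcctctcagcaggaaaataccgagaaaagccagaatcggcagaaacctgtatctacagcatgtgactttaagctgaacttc

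The amplicons lie at different distances from genes of the mm9 annotation, and no expression was measured in the data used here. The Dusp4 amplicon lies 2238 bp upstream of the start of Dusp4, a phosphatase of MAP kinases, and the Rab3a amplicon 1290 bp upstream of Rab3a, a small GTPase of vesicle release. The Otx1 amplicon lies 1881 bp upstream of the start of Otx1, a homeobox transcription factor best known from brain development, and 945 bp from the nearest end of Ehbp1 on its other side. The Klf9 amplicon lies 4566 bp upstream of Klf9, a Krüppel-like factor that responds to glucocorticoid and thyroid hormone. The chr2 amplicon is intergenic, 30817 bp from Srp14, a subunit of the signal recognition particle, and 18010 bp from Bmf, a pro-apoptotic BH3-only gene.

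P15 replicate 3 stood apart from the other P15 livers. The mean absolute difference over CpGs between 2 P5 livers ran from 3.87 to 6.12 percentage points. Between P15 replicate 3 and each of the other P15 livers it ran from 8.99 to 11.6 points, above the 1.87 to 8.09 points of the 10 other P15 pairs. P15 replicates 5 and 6, whose titles have another form than those of the rest and carry a letter M that the labels do not explain, were the closest pair, at 1.87 points. Whether they differ from the rest in sex or cohort is not given in the sources used here, and a difference of that kind cannot be told apart from the title form. P5 replicate 1 had no value for the 11 CpGs of 1 amplicon, and P15 replicate 4 none for the 29 CpGs of the chr6, chr15 and chr19 amplicons.

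Between P5 and P15, 55 of the 124 CpGs (44.4%) changed, at an adjusted p of at most 0.1 by limma and a difference over 5 percentage points, the limits the study's methods use. Of all CpGs 26.6% (33 CpGs) were more methylated at P15 and 17.7% (22 CpGs) were less methylated. The called differences ran from 5.31 to 38.1 points in size, and 14 were over 20 points. The median difference over all 124 CpGs was 1.42 points. For 26 CpGs (21%), of which 15 were higher and 11 lower at P15, the ranges of the livers did not overlap, and all 26 were called. Of the 55 calls, 50 were in the 5 amplicons whose sequences are shown, which hold 70 of the 124 CpGs. CpGs of 1 amplicon share their molecules and are not independent measurements. Without P15 replicate 3 the count was 62, of which 51 were shared, and without replicates 5 and 6 it was 38, all shared. With the replicate number as a block, which kept fewer livers, it was 33, all shared. Of the 55 calls 40 held whichever single liver was left out: all 14 of the chr2 amplicon, 11 of 14 in Dusp4, 7 of 9 in Otx1, 5 of 8 in Rab3a and 2 of 5 in Klf9 among them. Without P15 replicate 3 the calls rose from 8 to 12 in the Rab3a amplicon and from 9 to 11 in the Otx1 amplicon.

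Of the 11 amplicons, 6 (54.5%) differed between the ages in the mean over their CpGs (adjusted p of at most 0.1, exact permutation test, two-sided, adjusted over the 11 amplicons). For 4 amplicons (36.4%), those of chr2, Dusp4, Otx1 and Klf9, the livers of the 2 ages did not overlap. Without overlap the exact permutation test always gives its smallest possible p (unadjusted, 0.00433, or 0.00794 in Klf9 with fewer livers). For these amplicons its p therefore adds nothing to the lack of overlap and cannot rank them.

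**Figure D1:**
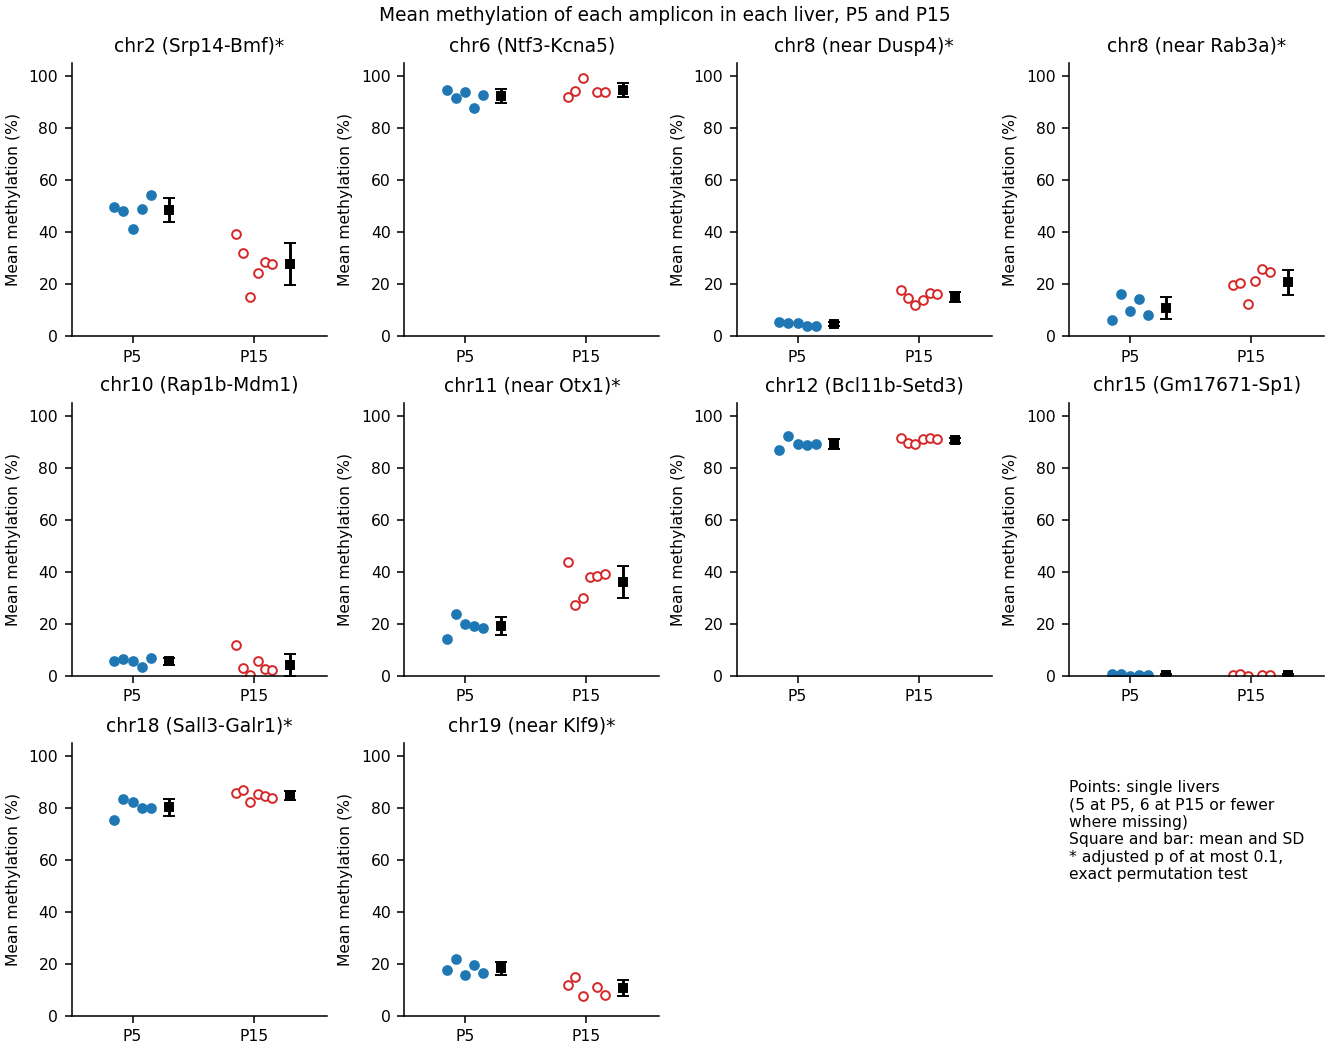
Mean methylation (%, vertical axis) of each of 10 amplicons in single livers at P5 (filled) and P15 (open), with the mean and SD as a square and bar. The chr2 and Klf9 livers sit lower at P15, and the Dusp4 and Otx1 livers higher, without overlap.

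The chr2 amplicon lost methylation at every CpG. Its mean was 49.5%, 48.0%, 41.3%, 48.7% and 54.2% in the P5 livers, and between 14.9% and 39.1% with a median of 28.1% in the P15 livers. The groups did not overlap, and the lowest P15 liver was replicate 3. The mean fell from 48.3% ± 4.62 (SD, n = 5) to 27.7% ± 8.05 (n = 6), a difference of -20.6 points with an SE of 3.88 (adjusted p = 0.0159, exact permutation test). All 14 CpGs were called, with falls between 15.3 and 26.5 points. The steepest was at position 118336475 of the mm9 sequence, the last CpG of the amplicon, where the P5 livers had 64.3%, 58.7%, 53.6%, 58.6% and 66.2%. The P15 livers ran there from 18.53% to 49.4%, with a median of 35.2% (adjusted p = 0.00202, limma). The CpG that gave the amplicon its name, at 118336266, fell from 46.6% ± 5.53 to 28.6% ± 6.26 (adjusted p = 0.00227, limma). The 14 CpGs started from levels of 32.3% to 60.3% and ended at 15.4% to 34.1%.

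The Klf9 amplicon also lost methylation, from a lower level. Its mean was 17.5%, 21.9%, 15.5%, 19.4% and 16.6% at P5, and 11.8%, 14.8%, 7.60%, 11.1% and 7.79% in the 5 P15 livers that had a value. No P15 liver reached the lowest P5 liver. The mean fell from 18.2% ± 2.56 (n = 5) to 10.6% ± 3.01 (n = 5), by 7.56 points (adjusted p = 0.0218, exact permutation test). All 10 CpGs had a lower mean at P15, and 5 were called, from the second to the sixth in the sequence. Without P15 replicate 3 the sixth, at 23211146, was lost (-4.27 points, adjusted p = 0.105, limma). The seventh, at 23211180, where that liver had 44.5% and the others 13.1% to 20.6%, went from -9.15 points (adjusted p = 0.254) to -14.8 and was called (0.00276). The steepest, at 23211143, was 32.0%, 29.5%, 17.3%, 29.2% and 25.5% at P5 and 13.2%, 16%, 4.03%, 15% and 9.96% at P15, with no overlap (adjusted p = 0.00444, limma). The naming CpG at 23211118 fell from 15.9% ± 3.73 to 8.21% ± 3.15 (adjusted p = 0.0175, limma).

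The Otx1 amplicon had the largest gain of the amplicon means. Its mean was 14.1%, 23.9%, 19.9%, 19.1% and 18.46% at P5, and between 27.3% and 43.8% with a median of 38.3% at P15. Every P15 liver was above every P5 liver. The mean rose from 19.1% ± 3.53 to 36.1% ± 6.20, a difference of 17.0 points with an SE of 2.98 (adjusted p = 0.0159, exact permutation test). The change was uneven along the amplicon. The last 2 of its CpGs, at 21904844 and 21904866, rose by 38.1 and 37.5 points, reaching 70.5% and 72.7%. At 21904844 the P5 livers had 20.0%, 41.1%, 30.8%, 38.3% and 31.6%, and the P15 livers ran from 64.0% to 82.4% with a median of 70.2% (adjusted p = 0.000148, limma). The CpGs at 21904710 and 21904766 differed by 1.09 and 0.63 points and were not called (adjusted p = 0.859 and 0.928, limma). P15 replicate 3 had 0% at both. Without it they differed by 2.94 and 2.74 points (adjusted p = 0.351 and 0.558), and without P15 replicates 5 and 6 by -1.76 and -2.31 points (adjusted p = 0.706 and 0.725), again not called. At 21904746 the P5 livers had 16.9%, 22.9%, 24.3%, 23.9% and 21.5%. P15 replicate 3 had 1.68% there and the other P15 livers 31.0% to 62.0%. The difference of 19.2 points was not called (adjusted p = 0.129, limma), but without P15 replicate 3 it was 27.1 points and was called (adjusted p = 0.00151). The naming CpG at 21904683 rose from 20.1% ± 6.49 to 34.5% ± 11.5 (adjusted p = 0.0613, limma), but this call was lost without P15 replicate 1, 5 or 6 or P5 replicate 1, 3, 4 or 5 (adjusted p = 0.107 to 0.125) and without P15 replicates 5 and 6 together (0.234).

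The Dusp4 amplicon rose from a low level. Its mean was 5.42%, 4.81%, 4.92%, 3.71% and 4.00% at P5, and between 11.7% and 17.6% with a median of 15.3% at P15. The lowest P15 liver lay above the highest P5 liver. The mean was 3.28 times higher, at 15% ± 2.10 against 4.57% ± 0.703 (adjusted p = 0.0159, exact permutation test). Of its 18 CpGs 14 were called and all 18 had a higher mean at P15. The largest rise was at 35868070, from 6.50% ± 1.79 to 28.0% ± 4.25. There the P5 livers had 6.03%, 6.74%, 5.92%, 4.47% and 9.35%, and the P15 livers ran from 24.7% to 34.3% with a median of 25.9% (adjusted p = 7.86e-05, limma). Its naming CpG at 35868104 rose by only 3.48 points, below the limit of 5 (adjusted p = 0.0295, limma). In the sequence above, the 4 CpGs that were not called are all in the stretch from position 35868041 to 35868169. The first of them rose by 4.57 points, and by 5.65 without P15 replicate 3, when it was called (adjusted p = 0.000218, limma), and the CpG at 35868169 stood at 0.18% at P5 and 0.28% at P15. The call at 35868219 (6.25 points) was lost without any of 7 single livers, among them P15 replicate 3 (4.38 points). Those at 35868049 and 35868117 were lost without any of 9 and any of 8 single livers.

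The Rab3a amplicon rose with overlap between the ages. Its mean was 6.24%, 16.3%, 9.74%, 14.3% and 8.06% at P5, and between 12.2% and 25.7% with a median of 20.9% at P15. P15 replicate 3, the lowest, lay below P5 replicates 2 and 4. The mean rose by 9.72 points, from 10.9% ± 4.24 to 20.7% ± 4.83 (adjusted p = 0.0238, exact permutation test). With the median over the CpGs in place of the mean, the rise was 5.43 points and was not called (adjusted p = 0.177, exact permutation test). Of the 15 CpGs 8 were called: the 4 from 73277222 to 73277250 and the last 4. Of the latter, the call at 73277389 (14.4 points) was lost without any of 8 single livers (adjusted p = 0.119 to 0.164, limma), and without P15 replicates 5 and 6 together (9.49 points, 0.310). Of the former, the call at 73277248 (5.53 points) was lost without any of 4 single livers, among them P15 replicate 3 (3.93 points). That at 73277250 (5.73 points) was lost without any of 3 single livers. The largest rise was at 73277393, from 25.3% ± 6.16 to 50.3% ± 4.45. The P5 livers had 18.1%, 27.4%, 24.6%, 34.5% and 22.1% there and the P15 livers 45.4% to 57.1% with a median of 50.2% (adjusted p = 0.000238, limma). The naming CpG at 73277222 rose from 2.48% ± 2.66 to 8.67% ± 2.79 (adjusted p = 0.0132, limma).

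**Figure D2:**
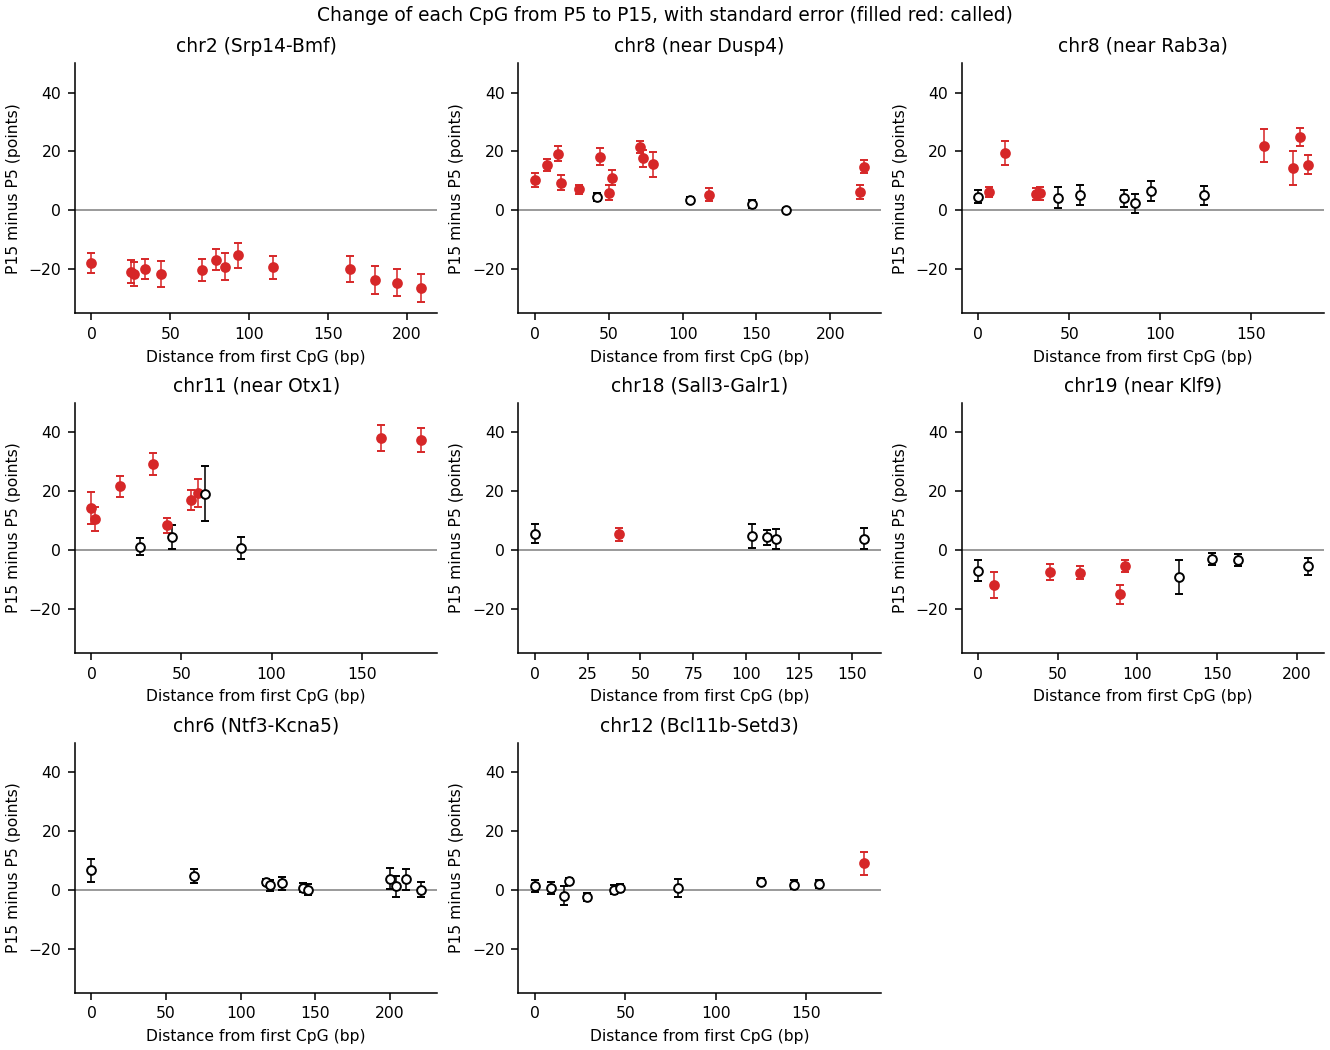
Difference in methylation between P15 and P5 (percentage points, with standard error) of each CpG against its distance in bp from the first CpG, in 8 amplicons. Filled red points passed the test. Called CpGs fill the chr2 amplicon and lie beside uncalled ones in the Otx1 and Rab3a amplicons.

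In the chr18, chr12, chr6, chr10 and chr15 amplicons the mean moved by 4.57 points or less. The chr18 amplicon lies between Sall3, a zinc finger factor, and Galr1, a galanin receptor, which are 1014265 and 364095 bp away. It was 75.1%, 83.2%, 82.3%, 80.1% and 79.7% at P5 and 82.1% to 86.9% with a median of 84.9% at P15, and the ages overlapped. Its mean rose by 4.57 points, from 80.1% ± 3.17 to 84.6% ± 1.65 (adjusted p = 0.0238, exact permutation test), and 1 of its 6 CpGs was called, at 82197636 (5.402 points). There P15 replicate 3 had 97.4% and the other P15 livers 86.7% to 94.6%. Without it the difference was 4.36 points, under the limit of 5, and the call was lost (adjusted p = 0.109, limma), as it was without P15 replicate 2 or 6 or P5 replicate 3, 4 or 5. The median over its CpGs did not pass (adjusted p = 0.177). The naming CpG at 82197710 had 89.0% ± 3.74 at P5 and 92.7% ± 7.0 at P15 (adjusted p = 0.421, limma), and without P15 replicate 3 it was called, with a rise of 6.39 points (adjusted p = 0.0214).

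The chr12 amplicon lies between the T-cell factor gene Bcl11b, 46729 bp away, and Setd3, 55891 bp away. It had 89.2% ± 1.90 at P5 and 90.7% ± 0.963 at P15. Of its 12 CpGs only the last, at 109288749, was called, from 69.8% ± 4.33 to 78.8% ± 8.37 (adjusted p = 0.0921, limma). This was also the CpG with the lowest level of that amplicon. P15 replicate 3 had 95.3% there and the other P15 livers 71.8% to 78.0%, and without it the rise went from 9.03 to 5.74 points (adjusted p = 0.0518). The call was lost without P15 replicate 1, 5 or 6 or P5 replicate 1, 3, 4 or 5 (adjusted p = 0.120 to 0.202). The naming CpG at 109288646 had 92.1% ± 3.46 and 92.7% ± 6.57. Its difference of 0.581 points ran from -0.375 to 3.22 with single livers left out, the latter without P15 replicate 3. The chr6 amplicon lies between Ntf3, a neurotrophin gene 251076 bp away, and the potassium channel gene Kcna5, 114508 bp away. It had 92.2% ± 2.72 at P5 and 94.7% ± 2.67 at P15 (n = 5 each), and none of its 11 CpGs was called. The difference in the means of 2.45 points became 1.33 without P15 replicate 3 and 1.37 without P5 replicate 4, and the CpG at 126367911 was called without P15 replicate 1 or P5 replicate 2 (adjusted p = 0.0492 to 0.0992, limma). Its naming CpG at 126368042 had 91.6% ± 7.95 and 95.4% ± 3.07 (adjusted p = 0.445, limma), a difference of 3.78 points that ran from 1.26 to 5.45 with single livers left out.

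The chr10 amplicon lies between Rap1b, a small GTPase gene 53570 bp away, and Mdm1, 242051 bp away. It had 5.59% ± 1.43 at P5 and 4.2% ± 4.16 at P15. The P15 livers ran from 0.168% to 11.9%, on both sides of the P5 range of 3.23% to 6.94%, and none of its 6 CpGs was called. The last, at 117336779, went from -4.86 to -8.32 points without P15 replicate 1 and was then called (adjusted p = 0.0244, limma). Its naming CpG at 117336769 had 7.44% ± 3.07 and 6.68% ± 7.80 (adjusted p = 0.923, limma). That difference of -0.761 points ran from -3.41 to 0.551 with single livers left out, the latter without P15 replicate 3. The chr15 amplicon, between Gm17671 and the transcription factor gene Sp1, stayed below 1% in each liver with a value, at 0.387% ± 0.242 and 0.345% ± 0.257 (n = 5 each), and none of its 8 CpGs was called. Its naming CpG at 102230520 had 0.767% ± 1.09 and 0.844% ± 0.882. For the chr6, chr10, chr12 and chr15 amplicons the adjusted p of the means ran from 0.256 to 0.802 (exact permutation test). The chr10 mean passed without P15 replicate 1 (-2.92 points, adjusted p = 0.0374), and the chr12 mean without P5 replicate 2 (2.17 points, 0.0262).

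P10 splits the interval. From P5 to P10, 25 CpGs were called, 13 higher at P10 (10.5% of the 124) and 12 lower (9.68%), and from P10 to P15 32 were called, 18 higher at P15 (14.5%) and 14 lower (11.3%), in 1 limma fit of the 17 livers of the 3 ages. Both comparisons use the same P10 livers, and 15 CpGs were called in both. The first count depended on the scale, the fit and single livers. It was 10 on the logit scale, 42 in a fit of all livers, 8 without the P10 and P15 livers of the other title form and 16 with the replicate number as a block. It was 14, 16, 6 and 9 without P10 replicate 6, 3, 4 or 5, 9, 8 and 7 without P5 replicate 1, 4 or 5, and 38 without P15 replicate 3. The second count stayed between 27 and 39 when single livers were left out, but was 18 without the P10 and P15 livers of the other title form and 14 with the replicate number as a block. A test of the difference between the steps called 0 of the 124 CpGs (0%) by limma, with 8 at an unadjusted p under 0.05.

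By amplicon the steps differed in size, untested. The chr2 mean fell by 9.75 points and then by 10.8. The Otx1 mean rose by 6.15 and then by 10.9 points, and the Dusp4 mean by 3.38 and then by 7.06. The Rab3a mean rose by 8.39 points to P10 and by 1.33 points after it, and the chr18 mean by 5.78 points before a fall of 1.21. With single livers left out, the second Rab3a step ran from 0.313 points (without P15 replicate 5) to 3.03 (without P15 replicate 3), and the first from 7.18 to 9.74. The chr18 fall was 0.699 points without P15 replicate 3. Of the CpGs called in the second step, 12 were in chr2, 10 in the Dusp4 amplicon and 7 in the Otx1 amplicon. In the first step 12 were in chr2 and 6 in the Rab3a amplicon.

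**Figure D3:**
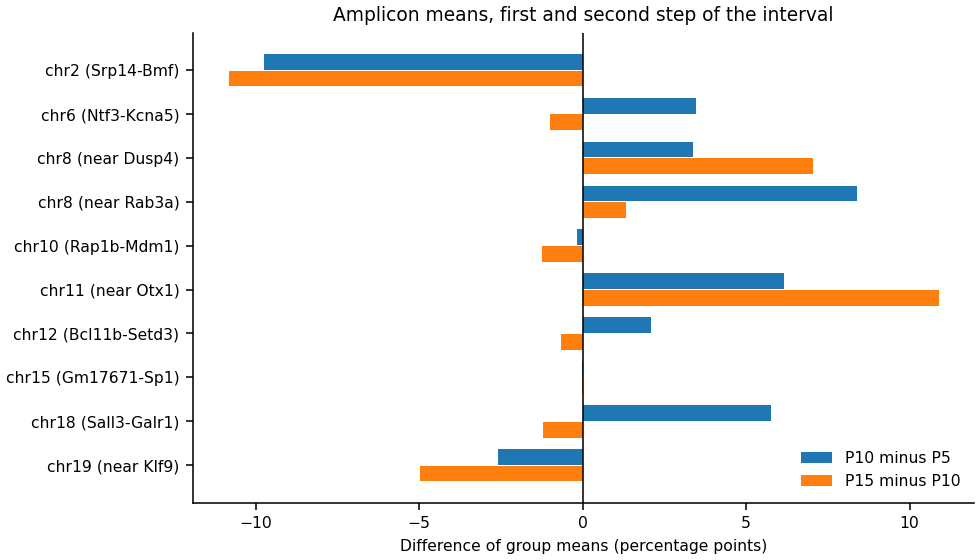
Change of 10 amplicon means from P5 to P10 (blue) and from P10 to P15 (orange), in percentage points of methylation. The chr2 amplicon fell by a similar amount in both steps (-9.75 and -10.8 points), and most of the Rab3a rise lay in the first.

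Set in the course from E18.5, an embryonic day shortly before birth, to 9 wk, the interval from P5 to P15 held a part of the whole change that differed between amplicons. As shares of the difference between the mean at E18.5 and at 9 wk, the change from P5 to P15 was 46.3% in the chr2 amplicon, 44.0% in the Otx1 amplicon, 60.6% in the Dusp4 amplicon, 37.9% in the Rab3a amplicon and 35.9% in the Klf9 amplicon. By P5 the chr2 amplicon had made 41.1% of it, the Otx1 amplicon 36.7%, and the Dusp4 amplicon 18.1%. By P15 these had reached 87.4%, 80.7% and 78.7%. These shares compare group means, without a test. The 9 wk livers and some of the E18.5 livers have titles of another form than the P5 livers. The study's methods do not list 9 wk among the ages of its time course. A difference in the source of the livers cannot be told apart from age in these shares. The chr6 and chr12 amplicons had made 80.0% and 77.1% of their smaller change by P5.

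**Figure D4:**
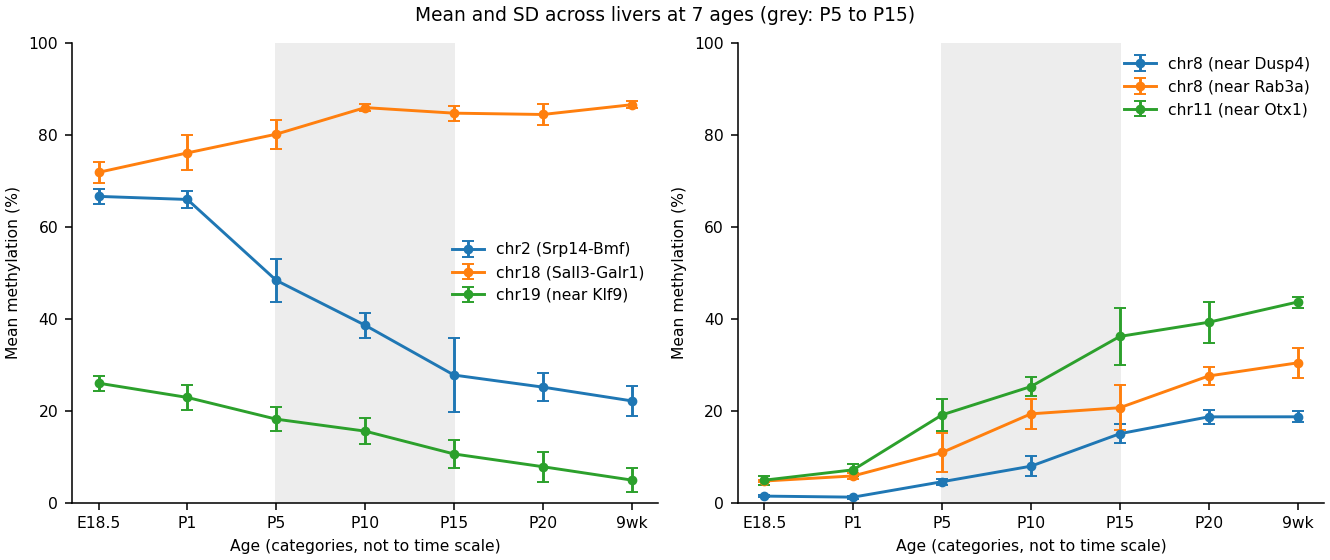
Mean methylation (%, with SD) of 6 amplicons in livers of 7 ages, with P5 to P15 in grey; the ages are evenly spaced and not to a time scale. The chr2 amplicon falls from 48.3% to 27.7% within the grey area, and the Otx1 amplicon rises from 19.1% to 36.1%.

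In all, 11 of these CpGs, in 4 amplicons, were also covered in liver by reduced representation bisulfite sequencing (RRBS), which reads fragments cut by a restriction enzyme, of 4 P5 and 3 P15 livers. Their titles carry the same ages and numbers as LSBS livers, so they may be the same livers and cannot be taken as an independent set. By title, P15 replicates 3, 5 and 6 were not among them. Over the whole liver table of 67790 CpGs none was called between P5 and P15 (0%, limma; 5955 at an unadjusted p under 0.05), while a fit of all liver libraries together gave 572 calls. The 3 CpGs shared with the Rab3a amplicon, at 73277389, 73277393 and 73277397, had 2.45%, 3.31% and 1.64% at P5 (n = 4). At P15 2 livers had a value. They had 25% and 41.67% at 73277389, 28% and 25% at 73277397, and 0% and 81.82% at 73277393, so that at the last 1 liver lay below the P5 mean and 1 far above it. The differences in the means were 30.9, 24.9 and 37.6 points in that order, none of them called (adjusted p = 0.351, 0.350 and 0.655, limma). In LSBS these CpGs stood at P5 at 22.2%, 16.6% and 25.3%, above the RRBS means, a difference that was not tested.

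None of the other 8 shared CpGs was called in RRBS. Of these, the chr10 CpGs at 117336769 and 117336779, the 3 of chr18 and the 1 of Klf9 were read by RRBS on the other strand. The 4 in the chr10 amplicon differed between P5 and P15 by -1.05, 4.59, 1.43 and -2.37 points in order of position. Their SEs were 4.498, 6.13, 4.54 and 5.73, each larger than the size of the difference. In LSBS they differed by 0.635, -1.26, -0.761 and -4.86 points, so that the signs were opposite in all but the last. With single livers left out, the LSBS differences of the first 3 ran from -0.816 to 2.23, -2.33 to 0.146 and -3.41 to 0.551. Their signs therefore cannot tell whether the assays differ. The 3 in the chr18 amplicon, each with 2 P15 livers, differed by -5.10, 2.21 and 11.98 points with SEs of 16.2, 10.99 and 11.9, against 4.68, 4.29 and 3.66 in LSBS, so that the first, at 82197699, had the opposite sign. In LSBS that CpG rose by 7.98 points and was called without P15 replicate 3 (adjusted p = 0.0299, limma). The 1 in the Klf9 amplicon, at 23211054, differed by -0.920 points with an SE of 6.29, against -6.99 in LSBS, where it was not called either (adjusted p = 0.164, limma), except without P15 replicate 2 or P5 replicate 1 (0.0690 to 0.0956).

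In heart and muscle the RRBS tables called 0 of 53517 and 0 of 46020 CpGs (0%; limma, with 3214 and 2492 at an unadjusted p under 0.05). Like those at 117336779 and 23211054, the CpG of the chr10 amplicon at 117336769 was read by RRBS on the other strand. There it had 46.6% ± 20.19 at P5 and 15.8% ± 19.5 at P15 in heart (n = 4 each), against 3.61% ± 4.17 (n = 4) and 5.04% ± 1.72 (n = 3) in liver. In muscle it had 20.8% ± 8.85 and 27.1% ± 20.7 (n = 3 each). The change in liver minus that in heart was 32.2 points, and minus that in muscle -4.92, neither called (adjusted p = 0.762 and 0.963, limma). The other CpG of that amplicon read in all 3 tissues, at 117336779, changed by -17.3 points in heart, -6.69 in muscle and -2.37 in liver, and that of the Klf9 amplicon, at 23211054, by -9.47, -4.03 and -0.920. In the chr18 amplicon 2 CpGs were read in heart, at 82197596 and 82197636, with differences of 14.3 and -0.0600 points. None of these was called. Over all CpGs in both tables, 1 of 40183 (0.00249%) differed in change between liver and heart, and 0 of 33195 between liver and muscle, by limma, with 2611 and 2401 at an unadjusted p under 0.05. Titles share numbers between the tissues, so samples may come from the same animals, which these fits did not take into account. None of the CpGs shared with the amplicons was called, and of these the one at 117336769 had an unadjusted p under 0.05 between liver and heart.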

How the data were processed

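Methylation fractions per CpG and liver, deposited by the authors for LSBS and RRBS, are given as percent. Reads had been aligned by the authors to mm9 with Bismark 0.7.6 and Bowtie2, as the submitters' processing notes and the study's methods state, and CpGs of low coverage had been discarded. The tables used give no read counts, so the depth of single values is unknown above the minimum coverage of the study's methods, and no interval or coverage minimum was computed. PCR reads without molecular identifiers are not independent molecules. In all, 13 columns that no single sample label matched, and the mm10 tables, were not used. Of the 11 amplicons, 1 is counted in all totals and tests but is not reported singly here.

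Groups were taken from the sample labels. CpGs were compared with limma 3.58.1 in R 4.3.3 on the fractions and called when the adjusted p (Benjamini-Hochberg) was 0.1 or less and the difference was over 5 percentage points, with at least 2 values per age. Amplicon means, over the CpGs of an amplicon, were compared by exact permutation tests (scipy 1.17.1, Python 3.11.15), two-sided. They were called on the adjusted p alone, and livers without an amplicon were left out of it. The limma p-values set a difference against the spread between these livers, moderated over CpGs. The permutation p-values count how often relabeled livers differ as much.

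Named CpGs were the naming CpG of each amplicon, and the 3 largest rises and 3 largest falls among called CpGs, at most 1 per amplicon; the latter were picked on their values, and those of the amplicon not reported singly are left out. Other CpGs given by position show contrasts along an amplicon and were chosen after their values were seen. Amplicons, lists and tests were chosen with earlier results of these data known. Alternatives covered the test, the scale (logit with an offset of 0.01), the limits, missing values, the livers in the fit, each liver left out and the replicate number as a block. The fits and the permutation test were tested on simulated data. Figures were drawn with matplotlib 3.10.9. Annotation was the reference's GENCODE release for mm9, and amplicons were placed by matching the study's primers to the bisulfite-converted sequence.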

Additional observations from a re-analysis of the deposited data

Results flagged for a closer look

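In 54 groups of livers, a single liver stood far from the rest of its age at 5 CpGs, by Dixon's test. Chance flags about 1 in 20 groups. In P15 replicate 3 the naming CpG of the chr12 amplicon, at 109288646, had 79.5%, while the other P15 livers had 94.3% to 97.5%. In the same liver the naming CpG of the chr18 amplicon, at 82197710, had 79.0%, while the others had 92.6% to 98.2%. Without this liver that CpG rose by 6.39 points from P5 and was called (adjusted p = 0.0214, limma). P5 replicate 2 had 7.16% at the naming CpG of the Rab3a amplicon and the others 0.854% to 1.93%. P5 replicate 5 had 4.18% at the naming CpG of the Dusp4 amplicon, against 1.38% to 1.91%. P5 replicate 1 had 2.64% at the naming CpG of the chr15 amplicon, against 0% to 0.646%. The cause was not tested.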

How the results depend on the processing

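The count of 55 CpGs changed between P5 and P15 stayed within 1.5 times under 9 alternatives of test, scale, fit, limits and samples (38 to 64 calls). With CpGs that had a value in all 11 livers, 14 rather than 22 were lower at P15, from 84 CpGs tested. The replicate block, with the replicate number at both ages as the pairing, left 33 calls, 17 of them higher at P15. The same 8 livers without the block, an alternative chosen after seeing the data, left 34 calls, 19 of them higher. Both settings differ from the main one in the number of livers and in which livers were left out. What lowered the count was not tested. The numbers were not taken to pair the livers: the deviations of same-numbered livers had r = 0.091, -0.117, 0.397 and 0.126, not all over 0.1, against -0.316 to 0.158 for the 12 pairs of different numbers, and not every liver correlated best with its own number. Paired sign flips gave amplicon differences of -19.3 (chr2), 9.68 (Dusp4), 6.71 (Rab3a), 15.5 (Otx1), 4.75 (chr18) and -6.90 points (Klf9), none of them called, since with 4 pairs or fewer no such test can pass. The median over CpGs gave 5.43 points in the Rab3a amplicon and 4.44 in chr18, neither called, and 0.0679 in chr15, of the opposite sign.

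From P5 to P10 the 25 calls became 10 on the logit scale, 42 in a fit of all livers, 8 without the P10 and P15 livers of the other title form and 16 with the replicate block. From P10 to P15 the 32 became 18 without those livers and 14 with the block. Unequal steps were called at 2 CpGs in the fit of all livers. The liver RRBS table had 572 calls when all its libraries were fitted together, and the liver-heart comparison 0 on the logit scale. Among single CpGs, the naming CpG of chr10 differed by 1.22 points without the livers of the other title form and by 1.34 in the 8 numbered livers with or without the block, with the sign reversed, and that of chr12 by -0.408 and -1.25. The causes were not tested.

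With single livers or libraries left out, the counts ran from 43 to 62 (24 to 40 higher, 18 to 23 lower), from 6 to 38 for P5 to P10, from 27 to 39 for P10 to P15 and from 0 to 2 for unequal steps, and the liver-heart and liver-muscle counts from 0 to 4 and 0 to 1. Amplicon differences ran from -2.92 to -0.580 (chr10), 0.846 to 2.17 (chr12) and -0.146 to 0.0276 (chr15), where the sign turned without P15 replicate 3, P5 replicate 1 or P5 replicate 2. The chr10 mean was called without P15 replicate 1, and the chr12 mean without P5 replicate 2. Naming CpGs ran from -3.41 to 0.551 (chr10), -0.375 to 3.22 (chr12) and -0.177 to 0.546 (chr15). A coverage minimum could not be varied.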
